A study of Homo sapiens with 18 samples.

Results

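The cytosolic ribosomal protein genes are the genes for the protein parts of the ribosome that works in the cytoplasm. They were taken by symbol: RPS or RPL followed by a number and an optional A or X, plus RPLP0, RPLP1, RPLP2 and RPSA. This gave 77 of the 23411 gene symbols in the count files, 31 for the small subunit and 46 for the large subunit and its stalk. The rule itself uses no measured value, and it was proposed with earlier results of these data known.

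Messenger RNA was sequenced from ARPE-19 cells, an established human line from the retinal pigment epithelium, in 18 libraries of 6 groups with n = 3 each. Control cells (named ARPE in the labels) had received the Cas9 vector without a guide RNA, and NRF2 ΔC cells (named C1) are 1 CRISPR-edited clone whose NRF2 protein lacks its C-terminal part, edited in exon 5 of NFE2L2. Any difference between the lines is therefore a difference between 1 clone and the vector-transduced control cells. Each line was left untreated (Milli-Q water), given 1 mM NACET, the ethyl ester of N-acetylcysteine that enters cells and feeds glutathione synthesis, or given 0.2 mM H2O2. On timing the sources differ: exposure lasted 2 h and followed 22 h in 1% serum according to the sample labels, but 8 h and 40 h in 10% serum according to the series text. Nothing in the labels says that the 3 samples of a group came from separate cultures, and p-values then measure only the spread between these samples.

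As background, a ribosome has a small subunit, which reads the mRNA, and a large subunit, which joins amino acids. Each ribosomal protein is needed in about equal number, and nearly all are made from single active genes scattered over the genome, accompanied by many silent copies (processed pseudogenes). Their mRNAs start with a C followed by an unbroken run of pyrimidines, the terminal oligopyrimidine (TOP) tract. Through this tract, mTORC1 and the RNA-binding protein LARP1 set how actively these mRNAs are translated and how stable they are, so that protein output can change while the mRNA level does not. mRNA was measured here, and translation was not.

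The TOP tract was looked for in the RefSeq promoter sequences (GRCh38.p14), which were found for 62 of the 77 members. It was scored on the transcribed strand only, as a C at the annotated start followed without a break by C or T, at least 5 bases in all. Such a tract was present at the annotated start of 42 of the 62 members (67.7%), against 653 of the 14131 genes of the count files with a promoter sequence (4.62%) and 5 of 67 genes for mitochondrial ribosomal proteins (7.46%). When the tract could begin up to 5 bases to either side, it was found for 50 members (80.6%) and for 22.1% of all these genes. The windows below run from 15 bases before the annotated start through the first 15 transcribed bases, and capitals mark the pyrimidines that follow the start without a break. The first 6 belong to members described below and show tracts of different length, and the last 3 belong to RPL9, RPS27A and the paralog RPS27L, at whose annotated start no tract begins.
RPS19, chr19:41860240-41860269, plus strand: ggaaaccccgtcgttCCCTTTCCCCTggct
RPLP2, chr11:809952-809981, plus strand: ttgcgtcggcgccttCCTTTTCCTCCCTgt
RPS6, chr9:19380222-19380251, minus strand: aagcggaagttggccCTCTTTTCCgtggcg
RPL37A, chr2:216498829-216498858, plus strand: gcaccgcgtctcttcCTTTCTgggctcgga
RPL36A, chrX:101390996-101391025, plus strand: tttgcctcgcggtttCTTTCTTTCCgcgcc
RPL41, chr12:56116618-56116647, plus strand: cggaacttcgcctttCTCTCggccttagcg
RPL9, chr4:39458908-39458937, minus strand: gtacgtaatgacgacagacgttctttcttt
RPS27A, chr2:55231888-55231917, plus strand: taaggagtgacacacaagacccagactctt
RPS27L, chr15:63157463-63157492, minus strand: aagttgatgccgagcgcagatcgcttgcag
These are annotated starts, not starts measured in ARPE-19 cells, and a window without capitals says only that no such run begins at that base.

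Between 16673306 and 25951154 counts fell on genes in each library. Levels are given in CPM, that is, as counts scaled to the same total on genes in every library. The edited gene, NFE2L2, was between 102 and 152 CPM in all 18 libraries, and counts over the whole gene do not check an edit that shortens the protein. NQO1, a textbook NRF2 target, was at 169.5 to 1195 CPM in control cells and at 11.3 to 22.6 CPM in NRF2 ΔC cells. Of the retinal pigment epithelium markers, RPE65, RLBP1, TYR and TTR were below 1 CPM in every library, BEST1, PMEL and SERPINF1 were below 4 CPM, and MITF, KRT8 and KRT18 were at 64.9 CPM or above. PTPRC, PECAM1 and EPCAM, which mark leukocytes, endothelium and other epithelia, were below 1 CPM. RPE65, which defines the epithelium in the eye, was thus at or near 0.

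The members were among the most abundant mRNAs. Together they held between 3.15% and 5.93% of the counts on genes in a library, with 95% Wilson intervals no wider than 0.0202 percentage points, which cover counting error only. The median member was at 543 CPM, against 27.3 CPM for the median tested gene. On average over the 18 libraries, 10 members were above 1000 CPM, 54 were between 100 and 1000 CPM, 9 were between 10 and 100 CPM and 3 were above 0 but under 10 CPM. Reads that matched more than 1 place were not counted. Of the 77 members, 76 passed the filter on low counts and were tested in each comparison.

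Members are short: their coding sequences run from 75 bases (RPL41) to 1281 bases (RPL4), with a median of 456 against 1458 for the other genes. Per kilobase of coding sequence, RPL37A was highest at 4006 ± 770 CPM (SD, n = 18 libraries), followed by RPL30 at 3431 ± 580 and RPL8 at 2934 ± 622, all of the large subunit. At the other end stood RPL21 at 1.5 ± 0.5, RPS26 at 15.6 ± 3.3 and RPS27 at 20.5 ± 4.9 CPM per coding kilobase. The ranges of the highest 3 overlapped, and RPL21 lay below the range of every other member with counts. The level of RPL37A was 2674 times that of RPL21, and the ratio of the highest to the lowest member was 31.0 when the 10 lowest were left out. The 10 lowest had between 5 and 133 named pseudogenes each in the annotation, with a median of 25, and RPL21 had the most. The 10 highest had between 1 and 19, with a median of 4.5. Across the 76 members, Spearman's rho of the level per coding kilobase with the number of pseudogenes was -0.44, given as a description of genes that share all libraries. A low level of such a member is a level of uniquely placed reads, and the part played by copies was not tested.

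**Figure D1:**
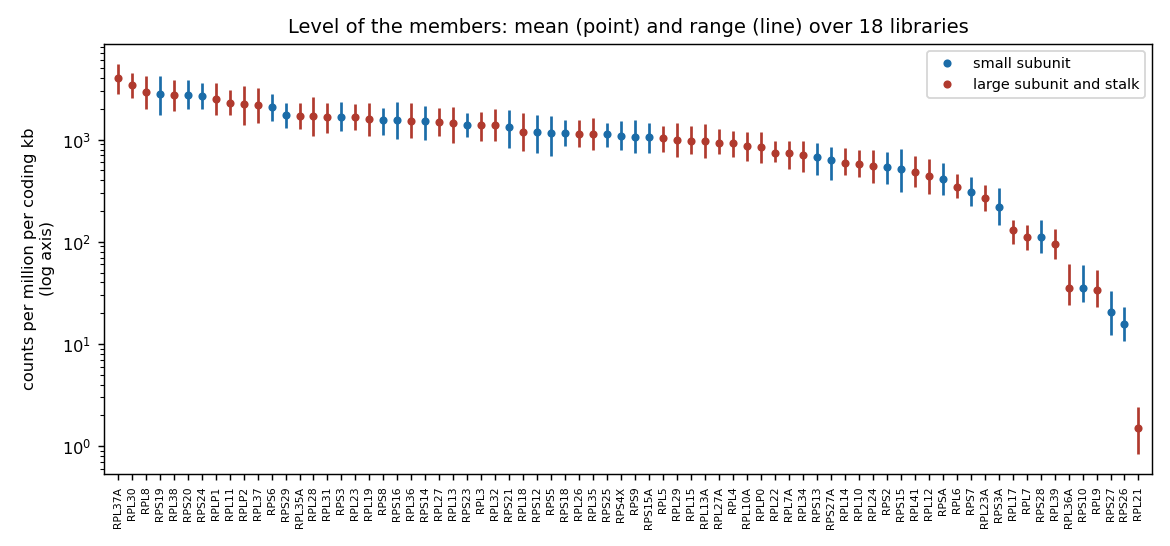
Level of 74 members with counts, in CPM per kilobase of coding sequence on a log axis; points are means over 18 libraries and lines run from the lowest to the highest library, in blue for the small subunit and red for the large subunit and stalk. Most members form a broad band on this axis, and RPL21, RPS26, RPS27, RPL9, RPS10 and RPL36A lie below it.

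The libraries of a group differed in how much of their sequence came from the members. In untreated control cells the share of counts was 3.27% in replicate 1, 3.85% in replicate 2 and 4.62% in replicate 3. In control cells with NACET it was 3.15%, 3.804% and 5.14%, and in control cells with H2O2 it was 3.51%, 3.91% and 5.02%. Replicate 1 had the lowest share and replicate 3 the highest in each of these groups.

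In untreated NRF2 ΔC cells the share was 3.48%, 4.22% and 4.58% in replicates 1, 2 and 3. With NACET it was 3.59%, 4.80% and 5.05%, and with H2O2 it was 4.06%, 5.63% and 5.93%. Again replicate 1 was lowest and replicate 3 highest in each group. Of the 75 members above 5 CPM, 36 (48%) had replicate 1 lowest and replicate 3 highest in all 6 groups, against 379 of the 11007 genes above 5 CPM (3.44%). The share of reads that aligned to more than 1 place ran from 8.24% to 10.4% and also had replicate 1 lowest and replicate 3 highest in every group, and its part in the members' levels was not tested.

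**Figure D2:**
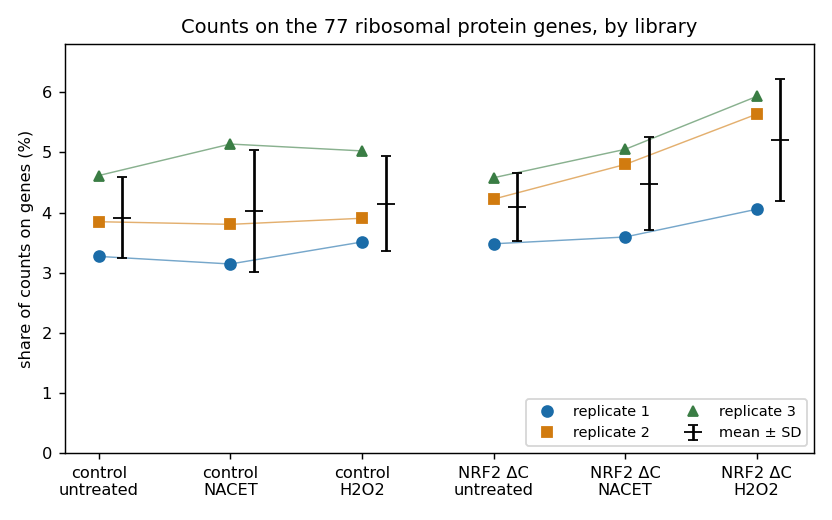
Share of the counts on genes (%) that fell on the 77 members, for each of the 18 libraries, with libraries of the same replicate number joined within a cell line and the mean ± SD (n = 3) beside them. Replicate 1 is lowest and replicate 3 highest in every group, and the H2O2 libraries of NRF2 ΔC cells lie above the untreated libraries of the same number, at 4.06%, 5.63% and 5.93% against 3.48%, 4.22% and 4.58%.

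Within a cell line, libraries of the same replicate number had correlated deviations from their group means, so the number was taken to pair them. This pairing was inferred from these counts and is not stated in the labels. Each treatment was tested in a main fit of the 6 libraries without a block. An alternative fit used the replicate number as a block. Both used the quasi-likelihood test of edgeR, with p-values adjusted by Benjamini-Hochberg over all genes tested, and a gene was called at an adjusted p below 0.05. The 2 treatments of a line share its untreated libraries, so their values are given side by side and were not correlated. Fold changes are log2 values.

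After NACET no member of control cells passed the test without a block. The edgeR fit without a block called 0 of 76 members, while 1.91% of all genes were called higher and 1.76% lower. In this fit 0 members had an unadjusted p below 0.05, against 2854 of the 13696 genes tested. DESeq2 also called 0 members. The median member was at 0.01 (1.01-fold), and the medians in the 3 pairs of libraries were -0.11, -0.06 and 0.14. With the block, 2 members were higher and none lower, against 20.1% of all genes higher and 20.6% lower. The lowest members were RPL21 (-0.52 ± 0.47, SE), RPL18 (-0.08 ± 0.20) and RPL8 (-0.06 ± 0.20), and none was called. The called members were RPS27A, a ribosomal protein made as a fusion to ubiquitin, with a blocked log2 fold change of 0.15 ± 0.06 (SE) and an adjusted p of 0.0298 by edgeR's quasi-likelihood test, and RPL36A, at 0.28 ± 0.11 with 0.0282 by the same test. RPL36A and RPL9 were the 2 members higher in all 3 pairs, which 29.2% of all genes were. Without replicate 1 the blocked fit called 0 members (edgeR), and without replicate 2 it called 1. Without replicate 3 it called 2, of which RPL36A was higher and RPL18 lower. The share of all genes called in these left-out fits was not counted.

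NACET in NRF2 ΔC cells gave a median of 0.10 (1.07-fold), with 0.00, 0.20 and 0.12 in the 3 pairs. The edgeR fit without a block called 0 of 76 members, against 0.48% of all genes higher and 0.953% lower. In this fit 0 members had an unadjusted p below 0.05, against 2516 of the 13542 genes tested. DESeq2 called 0 members. With the block, 1 member was higher and none lower, against 16% of genes higher and 18.1% lower. It was RPL17, a protein at the exit of the large subunit's peptide tunnel, at 0.21 ± 0.07 with an adjusted p of 0.0397 by edgeR's quasi-likelihood test with the block. RPL36A at 0.25 ± 0.26 and RPS28, a small subunit protein, at 0.23 ± 0.17 were the other high values, and RPL21 at -0.18 ± 0.33, RPL22 at -0.003 ± 0.16 and RPS26 at 0.01 ± 0.24 were the lowest. A positive log2 fold change was found for 74 of the 76 members, against 48.97% of all genes, and 32 members were higher in all 3 pairs, against 31.3% of all genes. Without replicate 2, the blocked fit called 9 members, 8 higher and 1 lower, and without replicate 1 or 3 it called 0. For these left-out fits of NACET the share of all genes called was not counted.

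H2O2 in control cells left most members near their untreated level. The median was 0.06 (1.04-fold), with 0.09, -0.01 and 0.08 in the 3 pairs. Without a block 1 member was higher and none lower, against 7.06% of all genes higher and 6.16% lower. It was RPL36A, a large subunit protein, which was at 10.04, 8.53 and 8.93 CPM in the untreated libraries and at 16.9, 12.6 and 12.4 CPM in the H2O2 libraries. The groups did not overlap, and the log2 fold change was 0.60 ± 0.16 with an adjusted p of 0.0397 by edgeR's quasi-likelihood test. RPL36A lies at chrX:100645812-100651143 (GRCh37) and has 52 named pseudogenes. It overlaps GLA on the opposite strand and RPL36A-HNRNPH2 on the same strand. Reads were counted without regard to strand, so its counts are uncertain, and the part of these overlaps was not tested. The call was absent in the fits without untreated replicate 1 or 2 and without H2O2 replicate 1 or 2. RPL21 was at 0.59 ± 0.41 and not called, and among the lowest members were RPL3 (-0.07 ± 0.16) and RPS2 (-0.06 ± 0.17).

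With the block, 10 members were higher after H2O2 in control cells and none lower, against 24.1% of all genes higher and 24.6% lower. They were RPL36A, RPL9, RPS26, RPL17, RPL24, RPS27A, RPL41, RPS13, RPL34 and RPL6, 3 of the 30 tested members of the small subunit and 7 of the 46 of the large. RPL9, a large subunit protein near the base of its stalk, was at 13.2, 14.8 and 18.5 CPM untreated and at 17.9, 21.3 and 23.0 CPM after H2O2, with ranges that overlapped and a blocked log2 fold change of 0.43 ± 0.08 (adjusted p = 0.000495 by edgeR's quasi-likelihood test). In all 3 pairs 32 members were higher, against 33.7% of all genes. Without replicate 1 the blocked fit called 3 members, without replicate 2 it called 15, and without replicate 3 it called 6. The share of all genes called was not counted in these left-out fits.

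Of the comparisons of treated with untreated cells, H2O2 in NRF2 ΔC cells gave the members their largest median log2 fold change. Of the 76 members, 75 had a positive value, against 49.3% of all genes, with a median of 0.34 (1.27-fold) and quartiles of 0.31 and 0.37, against a median of -0.01 over all genes. The 3 pairs of libraries gave medians of 0.21, 0.46 and 0.37, and 74 members were higher in all 3 pairs, which 35.1% of all genes were. The 2 exceptions were RPL21, with 8 to 25 counts in a library, and RPL22, an RNA-binding protein of the large subunit. The median stayed between 0.32 and 0.36 under 4 other scalings of the libraries. The members' share of counts was 1.165, 1.334 and 1.295 times that of the untreated library of the same number.

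The calls in this comparison depended on whether the block was used. Without a block, 1 member was called higher and none lower, against 4.96% of all genes higher and 6.11% lower, and DESeq2 called 3. At an unadjusted p below 0.05 stood 7 of the 76 members, all higher, against 4021 of the 13543 genes tested. The median coefficient of variation of a member over the 3 H2O2 libraries was 19.4%. With the block, 70 members were called higher and none lower, against 21.9% of all genes higher and 24.7% lower. They were 28 of 30 members of the small subunit and 42 of 46 of the large, whose medians were 0.33 and 0.34. Among the 6 members not called were RPL3, RPL7, RPL21, RPL22 and RPS26. Without a block, leaving out replicate 1 of the H2O2 libraries gave 45 calls, and leaving out replicate 2 of that group or replicate 2 or 3 of the untreated group gave 0. With the block, 28 members were called without replicate 2, 46 without replicate 3 and 69 without replicate 1. For these left-out fits the share of all genes called was not counted.

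Among other genes with a coding sequence of up to 600 bases the median log2 fold change was 0.08 (1200 genes), it was 0.09 for the 243 of them above 100 CPM, and it was -0.19 for the 2119 genes above 2700 bases. The members' median of 0.34 was above each of these. When the fit was given an offset for each of 8 classes of coding length, set from genes that are not members, the blocked test called 42 members and the median was 0.24. Reads aligned to more than 1 place made up 9.05% ± 0.51 (SD, n = 3) of the untreated and 9.81% ± 0.85 of the H2O2 libraries, and their part in the result was not tested. Markers of the epithelium moved too: MITF fell by 0.74 on the log2 scale in NRF2 ΔC cells without a block, and BEST1 rose by 3.76, at no more than 3.54 CPM. KRT8 (-0.44 ± 0.13) and KRT18 (-0.43 ± 0.17) were called with the block, PMEL and SERPINF1 stayed below 3 CPM, and the part of these markers in the result was not tested. In control cells, where the members' median was 0.06, KRT8 and KRT18 also fell after H2O2, by 0.49 and 0.53 without a block, BEST1 rose by 1.70, and MITF was at -0.36 ± 0.13 and called with the block only. In bulk RNA, fewer cells of a type and less RNA per cell cannot be told apart.

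**Figure D3:**
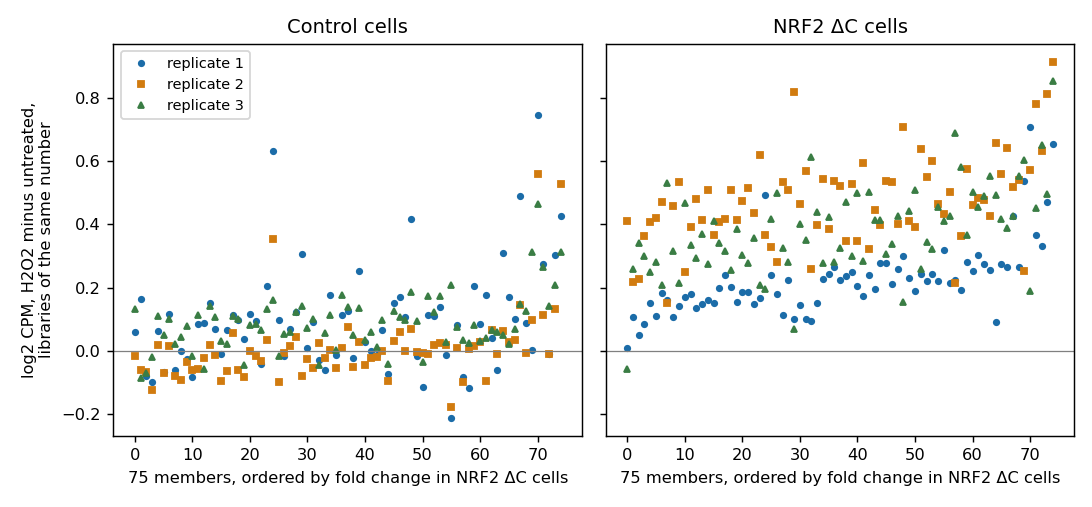
Difference in log2 CPM between the H2O2 and the untreated library of the same replicate number, for the 75 members other than RPL21, ordered along the x axis by their fold change in NRF2 ΔC cells. In control cells the 3 replicates scatter around 0 with medians of 0.09, -0.01 and 0.08, and in NRF2 ΔC cells nearly all points lie above 0, lowest in replicate 1 with a median of 0.21.

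The largest change was in RPL9 (chr4:39454207-39460551, GRCh37). It was at 16.5, 16.3 and 16.0 CPM in the untreated and at 26.0, 30.8 and 29.0 CPM in the H2O2 libraries of NRF2 ΔC cells. The groups were far apart, the log2 fold change was 0.79 ± 0.14, and this was the member called without a block (adjusted p = 0.0123 by edgeR's quasi-likelihood test). RPL9 is a low member with 20 named pseudogenes and its counts are those of uniquely placed reads.

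RPL41, the shortest ribosomal protein, was at 25.9, 29.3 and 36.4 CPM untreated and at 35.97, 51.6 and 51.4 CPM after H2O2 in these cells. The ranges overlapped, and the blocked log2 fold change was 0.57 ± 0.11 (adjusted p = 1.44e-05, edgeR's quasi-likelihood test). RPS10, a protein at the head of the small subunit, was at 13.6, 14.0 and 18.7 CPM and at 17.2, 21.8 and 29.4 CPM, with 0.52 ± 0.13 in the blocked fit. Its groups overlapped too, and each H2O2 library was above the untreated library of its number. RPS10 has 14 named pseudogenes and overlaps RPS10-NUDT3 on the same strand, and the part of these in its counts was not tested.

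RPS19, a small subunit protein needed to mature the subunit's RNA and the gene most often mutated in Diamond-Blackfan anemia, was among the abundant members. It was at 1109.9, 1245 and 1258 CPM untreated and at 1335, 1813 and 1847 CPM after H2O2 in NRF2 ΔC cells. The groups did not overlap, and the blocked log2 fold change was 0.43 ± 0.11 (adjusted p = 0.000431, edgeR's quasi-likelihood test). In control cells RPS19 was at 885, 1072 and 1202 CPM untreated and at 939.7, 1066 and 1309.9 CPM after H2O2. There the groups overlapped and the blocked value was 0.07 ± 0.05. Untreated and H2O2 libraries did not overlap for 4 of the 76 members in NRF2 ΔC cells (RPL9, RPL17, RPS19 and RPS27) and for 2 in control cells (RPL36A and RPS26), and the higher group was H2O2 each time. Of all genes, 18.3% and 18% had H2O2 libraries wholly above the untreated ones in these comparisons, a larger share than that of the members.

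The members at the other end in NRF2 ΔC cells were RPL21 (-0.02 ± 0.35), RPL22 (0.11 ± 0.16) and RPL7 (0.18 ± 0.15), none of them called in either fit. RPL37A, the highest member per coding length, was at 940.1, 1061 and 1175 CPM untreated and at 1046, 1413 and 1536 CPM after H2O2. Its ranges overlapped, and the blocked log2 fold change was 0.29 ± 0.11 (adjusted p = 0.016, edgeR's quasi-likelihood test).

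**Figure D4:**
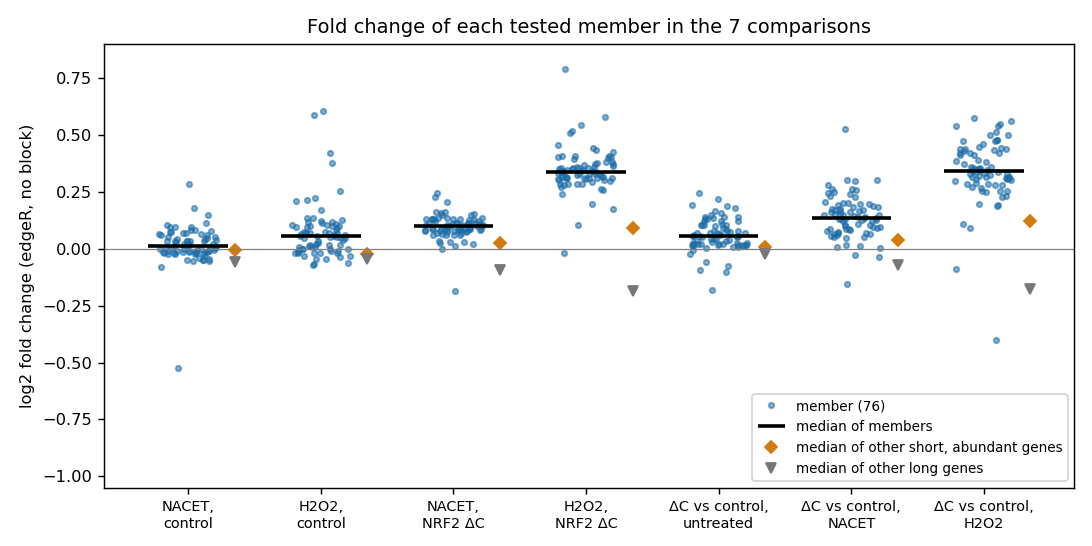
Log2 fold change of each of the 76 tested members (points) in the 7 comparisons of 2 groups, with the members' median (bar), the median of other genes with coding sequences up to 600 bases and above 100 CPM (diamond) and the median of other genes above 2700 bases (triangle). The members' median is 0.34 for H2O2 in NRF2 ΔC cells and for NRF2 ΔC against control cells under H2O2, and 0.14 or less in the other comparisons.

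Several members have roles beyond the ribosome, and their values in the H2O2 comparison of NRF2 ΔC cells were close to the members' median. RPL5 and RPL11, which bind 5S RNA and, when free, the p53 inhibitor MDM2, had blocked log2 fold changes of 0.26 ± 0.10 and 0.27 ± 0.11, and both were called. RPS6, the substrate of S6 kinase, was at 0.30 ± 0.11 and RPSA, also known as a laminin receptor, at 0.29 ± 0.10, both called. RPS27A was at 0.36 ± 0.10 and called.

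RPLP0, RPLP1 and RPLP2 form the stalk that recruits elongation factors. After H2O2 in NRF2 ΔC cells their blocked log2 fold changes were 0.31 ± 0.10, 0.27 ± 0.10 and 0.38 ± 0.10, and all 3 were called. In control cells the values were 0.02 ± 0.04, -0.05 ± 0.04 and 0.05 ± 0.04, and none was called. With length offsets and the block, RPLP0 and RPLP2 were called in NRF2 ΔC cells and RPLP1, RPL5, RPL11, RPS6 and RPSA were not.

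Whether H2O2 acted differently on the members of the 2 lines was tested as an interaction over 12 libraries, that is, as the H2O2 effect in the edited clone minus that in the control line, on the log2 scale. The members' median interaction was 0.31, and 73 of the 76 had a larger log2 fold change in NRF2 ΔC cells, the exceptions being RPL21, RPL36A and RPS26. Leaving out 1 library moved this median between 0.17 (without untreated replicate 3 of control cells) and 0.47 (without H2O2 replicate 1 of NRF2 ΔC cells). It was 0.20 without H2O2 replicate 3 of NRF2 ΔC cells. The edgeR fit without a block called 0 members, against 0.0214% of all genes in either direction. In this fit 0 members had an unadjusted p below 0.05, against 806 of the 13987 genes tested. DESeq2 called 0 members. With replicate number as a block within each cell line, 13 members were called, all larger in NRF2 ΔC cells, against 6.91% of all genes in either direction. They were RPS2, RPS10, RPS12, RPS14 and RPS19 of the small subunit and RPL8, RPL13, RPL18, RPL19, RPL29, RPL36, RPL37 and RPLP2 of the large.

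RPS2, which lies at the small subunit's mRNA entry channel, had the strongest of these calls. It was at 376, 423 and 536 CPM untreated and at 358, 397 and 520.4 CPM after H2O2 in control cells. In NRF2 ΔC cells it was at 385, 501 and 502 CPM and at 467, 660.4 and 669 CPM. Each H2O2 library was below the untreated library of its number in control cells and above it in NRF2 ΔC cells, and the interaction was 0.42 ± 0.10 with the block (adjusted p = 0.0125, edgeR's quasi-likelihood test). The 3 members with the lowest unadjusted interaction p without a block were RPL9 at 0.39 ± 0.21, RPS19 at 0.39 ± 0.24 and RPS14, a small subunit protein, at 0.37 ± 0.23. With length offsets and the block, 2 members were called, RPS2 and RPL8, and DESeq2 with the block called 22. Leaving out the pair of replicate 1 of NRF2 ΔC cells gave 53 calls in the blocked edgeR fit. Leaving out any other pair of either line gave 0 to 2, and the share of all genes called was not counted in these fits.

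For NACET the median interaction was 0.08. The edgeR fit without a block called 0 members, against 0.0643% of all genes. In this fit 0 members had an unadjusted p below 0.05, against 228 of the 14002 genes tested. DESeq2 called 0 members. With the block within cell line 0 members were called against 0.9% of genes. RPS28, RPL18 and RPL21 had the lowest p, at 0.20 ± 0.27, 0.18 ± 0.29 and 0.34 ± 0.58.

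Untreated NRF2 ΔC and control cells had members at like levels. The median of the log2 fold changes was 0.06, and edgeR called 0 of 76 members, against 4.07% of all genes called in either direction. An unadjusted p below 0.05 was found for 0 members, against 1879 of the 13710 genes tested. DESeq2 called 0 members. The lowest were RPS29, a small subunit protein, at -0.18 ± 0.14, RPL17 at -0.10 ± 0.15 and RPL41 at -0.09 ± 0.15, and the highest were RPS26 at 0.25 ± 0.24, RPS15 of the small subunit at 0.22 ± 0.17 and RPS19 at 0.19 ± 0.14. Under NACET the median was 0.14, and edgeR again called 0, against 5.42% of all genes, as did DESeq2. An unadjusted p below 0.05 was found for 0 members, against 2541 of the 13627 genes tested. RPS29 was at -0.16 ± 0.19, RPL36A at -0.04 ± 0.24 and RPS25 at -0.03 ± 0.20, and at the other end stood RPL21 at 0.53 ± 0.32, RPS15 at 0.30 ± 0.23 and RPL28 at 0.30 ± 0.22. RPL21, at 8 to 25 counts, was the 1 member whose groups did not overlap with NRF2 ΔC cells higher, which was so for 12.7% of all genes.

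Under H2O2 the median was 0.34, with 74 of 76 members higher in NRF2 ΔC cells. The edgeR test called 0 members, against 6.23% of all genes, and DESeq2 called 1 member. An unadjusted p below 0.05 was found for 18 of the 76 members, each with a positive value, against 3225 of the 13580 genes tested. Among the highest values were those of RPS19 at 0.57 ± 0.18 and RPL36 at 0.55 ± 0.20, and the adjusted p of RPS19 was 0.0956 by edgeR's quasi-likelihood test. The lowest were RPL21 at -0.40 ± 0.31, RPL36A at -0.09 ± 0.26 and RPL17 at 0.09 ± 0.13. Without replicate 1 of the H2O2 libraries of NRF2 ΔC cells, 51 members were called, and the share of all genes called in that fit was not counted. This comparison uses the same H2O2 libraries of NRF2 ΔC cells as the treatment comparison and is not independent of it.

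By TOP tract, the median log2 fold change after H2O2 in NRF2 ΔC cells was 0.34 for the 42 members with a tract at the annotated start and 0.34 for the 20 without, of which 40 and 18 were called with the block. In control cells the medians were 0.06 and 0.06, with 5 of the 42 and 5 of the 20 called. Of all genes, the blocked fit called 21.9% higher and 24.7% lower in NRF2 ΔC cells. In control cells it called 24.1% higher and 24.6% lower. No test was made of this split.

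FAU falls outside the symbol rule and encodes a ubiquitin-like protein fused to a small subunit protein. It was at 183, 254 and 251 CPM untreated and at 241, 339 and 344 CPM after H2O2 in NRF2 ΔC cells. Each H2O2 library was above the untreated library of its number. The blocked log2 fold change of 0.40 was called, and in control cells the value of 0.10 was not. Without a block neither was called. The H2O2 interaction of FAU was 0.31 with the block within cell line and was called, and without a block it was not called.

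Paralogs encode variants of a ribosomal protein. RPS27L, a variant of RPS27 and a known p53 target, was at 196, 220 and 232 CPM in untreated control cells, at 261, 262 and 304 CPM after H2O2 and at 168, 171 and 197 CPM after NACET. The H2O2 libraries were all above the untreated ones, and the NACET libraries were each below the untreated library of their number. The blocked log2 fold changes were 0.35 after H2O2 (adjusted p = 2.26e-05) and -0.26 after NACET (adjusted p = 6.16e-05), both by edgeR's quasi-likelihood test, and without a block neither was called.

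In NRF2 ΔC cells RPS27L was at 189, 169.98 and 233 CPM untreated, at 255, 270.5 and 329.9 CPM after H2O2 and at 155, 164 and 183 CPM after NACET. The H2O2 group again lay wholly above the untreated group. The blocked values of 0.51 and -0.25 were both called, the latter in 3 of 5 alternatives, and without a block neither was called. The interaction of RPS27L with H2O2 was 0.17 and was not called in either fit. RPS27 itself had few unique reads, at 3.08 to 8.24 CPM.

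With the block, RPL22L1, the paralog of RPL22, was called higher after both treatments in control cells, at 0.54 for H2O2 and 0.36 for NACET. In NRF2 ΔC cells RPL22L1 was at 0.28 for H2O2, called with the block, and at 0.10 for NACET, not called. Without a block, none of the paralogs tested was called in the 4 treatment comparisons. The H2O2 call in NRF2 ΔC cells was kept in 1 of 5 alternatives of the blocked fit, with adjusted p up to 0.362. RPL26L1 was higher after H2O2 in both lines, at 0.28 in control and 0.58 in NRF2 ΔC cells with the block, and was not called after NACET. RPL39L was higher after NACET in both lines, at 0.38 and 0.36 with the block, and was not called after H2O2. The NACET call was kept in 4 of 5 alternatives in control cells and in 2 of 5 in NRF2 ΔC cells, where the adjusted p reached 0.0936. RPL36AL was not called in any of the 4 treatment comparisons. RPL3L, a muscle form, and RPL10L, a testis form, were at 0.106 CPM or below in every library and were not tested.

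**Figure D5:**
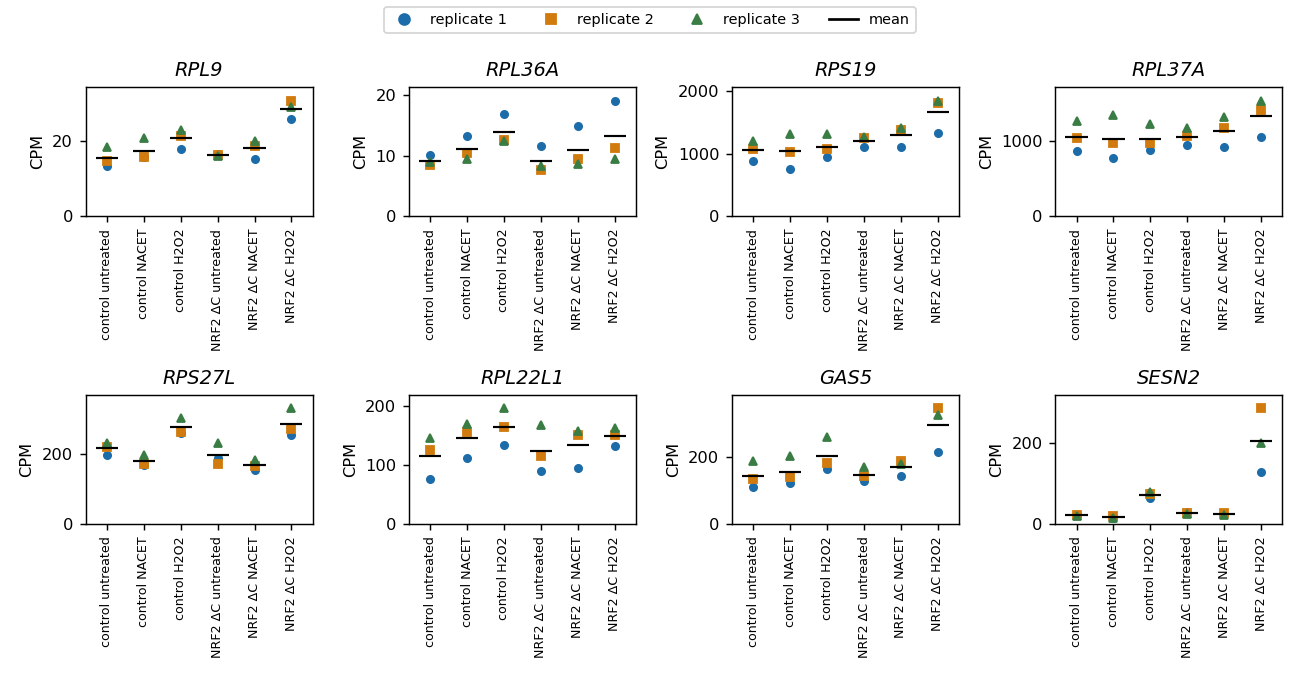
Level in CPM of 4 members (RPL9, RPL36A, RPS19, RPL37A), 2 paralogs (RPS27L, RPL22L1) and 2 related genes (GAS5, SESN2) in each library, with the group means as bars and the replicate number shown by the marker. RPL9, RPS19, RPS27L, GAS5 and SESN2 have all H2O2 libraries of NRF2 ΔC cells above the untreated ones. In RPL36A replicate 1 is highest in every group, unlike most members.

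A further list held 19 other genes whose mRNAs are commonly counted as TOP mRNAs, elongation and initiation factors among them. After H2O2 in NRF2 ΔC cells their median log2 fold change was 0.23, and 0 were called without and 8 with the block, all higher. The 3 largest were EEF1D, a subunit of the elongation factor 1 exchange complex, at 0.42 ± 0.21, EEF1B2 of the same complex at 0.42 ± 0.17 and GNB2L1, the ribosome-bound scaffold RACK1, at 0.41 ± 0.22. HNRNPA1, a splicing factor, was lowest at -0.20 ± 0.23. In control cells the median was 0.06, with 1 called without a block (EIF3A, a scaffold of initiation factor 3, at 0.37 ± 0.09) and 7 with it.

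Host genes of small nucleolar RNAs, several of which also start with a TOP tract and whose spliced transcripts are usually destroyed by nonsense-mediated decay, numbered 9 in the files. After H2O2 in NRF2 ΔC cells 6 were called higher without a block and 9 with it, and the median was 0.98. In control cells 3 were called without and 9 with it, and the median was 0.53. GAS5 was at 128, 143 and 171 CPM untreated and at 216, 344 and 326 CPM after H2O2 in NRF2 ΔC cells (0.98 ± 0.20), SNHG7 was at 1.07 ± 0.27, SNHG1 at 1.10 ± 0.23 and SNHG15 at 1.52 ± 0.25. These 4 values were each larger than that of any member.

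Of 17 genes that control translation of the members' mRNAs, 3 were called higher after H2O2 in each line and none lower without a block. They were the same 3 in both lines. SESN2, a stress-induced inhibitor of mTORC1, was at 1.75 ± 0.12 in control and 2.89 ± 0.27 in NRF2 ΔC cells. EIF4EBP1, which holds back cap-dependent translation when mTORC1 is off, was at 0.80 ± 0.17 and 1.24 ± 0.29. LARP1 was at 0.53 ± 0.10 and 0.46 ± 0.12. SESN2 was at 28.5, 27.3 and 25.7 CPM untreated and at 128, 286 and 200 CPM after H2O2 in NRF2 ΔC cells. With the block, 7 were higher and 6 lower in control cells and 7 higher and 4 lower in NRF2 ΔC cells. The largest falls were those of EEF2K, the kinase of elongation factor 2, and EIF4EBP2, which were at -0.48 ± 0.14 and -0.43 ± 0.13 in NRF2 ΔC cells and called with the block.

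The 5 dedicated chaperones of ribosomal proteins had a median of 0.40 in NRF2 ΔC cells and 0.28 in control cells after H2O2. With the block 4 were higher in each line, and without it 0 in NRF2 ΔC cells and 2 in control cells, BCCIP at 0.56 ± 0.10 and GRWD1 at 0.43 ± 0.09, which bind newly made large subunit proteins.

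The 76 genes of mitochondrial ribosomal proteins, which build the ribosome inside mitochondria, were measured as the nearest other class. After H2O2 they had a median of 0.29 in NRF2 ΔC cells, with 4 higher and none lower without a block and 46 higher and 2 lower with it. In control cells the median was 0.17, with 8 higher and none lower without a block and 39 higher and 5 lower with it, whereas of the 76 cytosolic members 1 and 10 were higher there. The median interaction of the mitochondrial genes was 0.15, and 2 were called with the block within cell line, against 0.31 and 13 for the cytosolic members. The medians after NACET were 0.06 in both lines for the mitochondrial genes and 0.01 and 0.10 for the cytosolic members.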

How the data were processed

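The authors made poly(A) TruSeq v2 libraries, sequenced single-end reads on a NextSeq 500, aligned them with TopHat 2.1.0 to hg19 and counted uniquely aligned reads per gene with HTSeq 0.11.2 without regard to strand. They removed ribosomal RNA genes. The gene annotation was not given in the sources used here. The deposited values are raw counts per gene symbol (23411 symbols, 4060 of them at 0 in all libraries, and 5 summary lines that were left out of library sizes). Between 72.1% and 74.2% of reads fell on genes, 15.0% to 17.5% on no feature and 8.24% to 10.4% aligned to more than 1 place.

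Counts were tested with edgeR 4.0.16 (R 4.3.3): filterByExpr, TMM factors, glmQLFit and glmQLFTest, 3 against 3 libraries, Benjamini-Hochberg adjustment over all genes tested. CPM are counts scaled to the total on genes times the library's TMM factor from all 18 libraries, and per-pair differences used a prior count of 2. Each interaction used 12 libraries. A fit on simulated counts was checked first. DESeq2 1.42.0, other scalings, filters, a fit of all 18 libraries, left-out libraries, the replicate block and length offsets (83.3% of tested genes had a coding length) were alternatives. Within a cell line, deviations of libraries with the same number correlated at 0.47 to 0.87 over 11007 genes, so the number was taken to pair them. Between lines replicate 1 correlated at 0.71 to 0.77 and replicate 3 at 0.59 to 0.71, but replicate 2 at -0.25 to -0.04. The number was therefore not taken to pair libraries across lines.

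Members, lists and the block within cell line were chosen with earlier results of these data known. Named genes were the 3 members highest and lowest in each comparison and in level, the 3 with the lowest interaction p, RPL5, RPL11, RPS6, RPS27A, RPSA and the stalk genes, a fusion and the paralogs, and at most 3 each way of the other lists; the members called with the block, RPS2, GAS5 and other genes outside the rule were named after their values were seen. Gene positions and pseudogene counts are from GENCODE lifted to GRCh37. Some genes that this rule selects are not reported here.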

Additional observations from a re-analysis of the deposited data

How the results depend on the processing

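The number of members called was 0 or 1 in the fits without a block. With the replicate block it was 2 (NACET) and 10 (H2O2) in control cells, 1 and 70 in NRF2 ΔC cells, and, where numbers did not pair the libraries, 0, 1 and 36 between the lines untreated, under NACET and under H2O2. For the H2O2 interaction it was 13 with the replicate block within cell line, and with one block of 3 numbers over both lines it was 0. DESeq2 called 3 for H2O2 in NRF2 ΔC cells and 1 between the lines under H2O2. One fit of all 18 libraries called 0 for H2O2 in control cells and 3 in NRF2 ΔC cells, and length offsets called 0 for H2O2 in control cells. With the block, DESeq2 called 0 (NACET) and 5 (H2O2) in control cells, 0 (NACET) in NRF2 ΔC cells and 22 for the H2O2 interaction, and length offsets called 1 for NACET in control cells, 42 for H2O2 in NRF2 ΔC cells and 2 for the H2O2 interaction. Leaving out 1 library gave 0 to 1 for H2O2 in control cells, 0 to 45 in NRF2 ΔC cells and 0 to 51 between the lines under H2O2. Leaving out 1 replicate number in the blocked fits gave 0 to 2 and 3 to 15 in control cells, 0 to 9 and 28 to 69 in NRF2 ΔC cells, and 0 to 53 for the H2O2 interaction. The share of all genes called was counted only for the main edgeR fits and the blocked edgeR fits of treatments and interactions. The blocked counts between the lines and the counts of all other alternatives have no such share beside them. The cause of the differences between fits was not tested. The median log2 fold change for H2O2 in NRF2 ΔC cells stayed between 0.24 and 0.49 over 16 alternatives, and that of H2O2 in control cells ran from -0.10 to 0.19. Single members were followed through the alternatives only in comparisons where the naming rule picked them, and fusions and paralogs only in the treatment comparisons. Among these no direction of a call turned, and 62 values lost and 63 gained a call under an alternative. The other lists, the epithelium markers and values named after they were seen, such as the RPS2 interaction, were not followed. Depth limits the members with few unique reads (RPL21 at 8 to 25 counts).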
